A study of Mus musculus with 15 samples.

Results

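Interferon-stimulated genes were followed through 2 sets of Affymetrix arrays, 1 of mouse CD4+ T-cells and 1 of mouse thymocytes. The 36 genes were listed by name as well-known targets of interferon, and all probe sets that the platform annotation gives to 1 of these genes alone were taken. Earlier results of these data were known when they were chosen. The shares of members set beside those of all probe sets are thus not independent of that choice. On the CD4+ T-cell arrays 34 of the 36 genes were named, by 52 of 45101 probe sets and among 18194 genes in all. On the thymocyte arrays 33 of the 36 were named, by 47 of 22690 probe sets and among 12394 genes in all. Isg15 had only a probe set shared with another gene and was not given a value, Ifi44 was not analysed here, and Xaf1 was not analysed in thymocytes. A gene was counted where any of its probe sets was, and 13 of the 34 genes on the CD4+ T-cell arrays had several.

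The CD4+ T-cells were sorted from the spleens of N-ras KO mice and of WT littermates, all on the 129/SJ background. Cells of each genotype were kept overnight in T-cell growth medium, either with a low-level T cell receptor (TCR) stimulus of 1 μg/ml each of antibodies to CD3 and CD28, or without antibodies. This gave 4 groups of 3 arrays: stimulated N-ras KO, unstimulated N-ras KO, stimulated WT and unstimulated WT. Thymocytes, the T-cell precursors of the thymus, came untreated from 1 H-ras KO, 1 N-ras KO and 1 WT mouse on 129/SJ, with 1 array each. The KO mice were homozygous offspring of heterozygous parents. Sample labels put every mouse between 6 and 20 weeks old, while the study's methods state 6 weeks for the thymocyte donors. N-ras and H-ras are small GTPases that relay signals from receptors such as the TCR, and the study asked which genes depend on each of them. The sources differ on whether the stimulated and unstimulated cells of 1 number came from the same mouse. Within a condition, the study's methods state that every repeat used another mouse. The p-values measure the spread between arrays of the same group, which may be partly technical.

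Interferons are secreted proteins that warn cells of infection. Interferon alpha and beta act through kinases bound to their receptor and assemble a complex of STAT proteins with Irf9, which binds the interferon-stimulated response element (ISRE) in the promoters of target genes, while interferon gamma, made by activated T-cells, drives STAT dimers to the gamma-activated site (GAS). The products of the target genes sense viral nucleic acid, block viral entry and replication, attack the vacuoles of intracellular microbes, and raise antigen presentation.

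Many, but not all, promoter sequences of the genes hold matches to these elements. The 5 stretches shown were taken from those with a match and belong to members described below. RefSeq promoters (GRCm38.p6) were at hand for 27 of the 36 genes, as 32 windows of 300 bases, from 250 before to 50 after the start of the transcript. The ISRE core searched was GAAA, any 2 bases, then GAAA, and the GAS core was TTCNNNGAA, each on both strands. An ISRE core was found in 17 of the 32 windows, while 3.44% of all 32851 promoter windows of this length hold it. A GAS core was found in 8 of the 32, against 8.30% of all windows. In 5 windows both cores were present, in 2 of them overlapping, and in 12 there was neither. The stretches below run 5′ to 3′ on the strand of the gene, with the core in capitals. Those of Ifit1 (chr19:34640760-34640838, plus strand) and Ifit3 (chr19:34583348-34583441, plus strand), which encode proteins that bind foreign RNA, hold 2 ISRE cores each. Those of Rsad2 (chr12:26456538-26456597, minus strand), which encodes the antiviral enzyme viperin, and of Gbp2 (chr3:142620579-142620638, plus strand), a GTPase that acts on intracellular microbes, hold 1 ISRE core each. That of Irf1 (chr11:53769899-53769957, plus strand), a transcription factor of the interferon gamma response, holds a GAS core, while another window of Irf1 holds neither core.
Ifit1: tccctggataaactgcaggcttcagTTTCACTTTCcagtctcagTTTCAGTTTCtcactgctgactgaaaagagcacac
Ifit3: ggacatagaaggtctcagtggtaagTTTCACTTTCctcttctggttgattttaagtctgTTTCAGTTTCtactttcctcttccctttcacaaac
Rsad2: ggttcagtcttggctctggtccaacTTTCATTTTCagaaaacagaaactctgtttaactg
Gbp2: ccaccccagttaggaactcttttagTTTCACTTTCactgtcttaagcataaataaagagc
Irf1: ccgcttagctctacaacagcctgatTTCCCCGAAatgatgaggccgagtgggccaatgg
A match of these letters is a description of the sequence and does not show that a factor binds there.

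All values below are differences on the log2 scale and not levels. On each of the 45101 probe sets the 3 unstimulated arrays of each genotype had a median of 0, and on each of the 22690 probe sets of the thymocytes the 3 arrays had a median of 0. Brightness is thus not known, cell types could not be checked by the level of their markers, and unstimulated N-ras KO could not be compared with unstimulated WT cells. Nras, the deleted gene, went against the labels on some CD4+ T-cell arrays. On the probe set 1454060_a_at it read 0.51, 0.08 and 2.09 on the stimulated arrays labelled N-ras KO 1, 2 and 3 and 0.00, -0.04 and 2.04 on the unstimulated ones, against -3.04, -0.10 and 0.00 on the stimulated arrays labelled WT 1, 2 and 3 and -2.68, 0.28 and 0.00 on the unstimulated ones. The arrays labelled N-ras KO 3 were thus high and those labelled WT 1 low for Nras within their own genotype, and genotypes below are those of the labels. In thymocytes the same probe set read 0.28 in H-ras KO, -2.38 in N-ras KO and 0.00 in WT, as the N-ras KO label says. Hras was not named on either array, so that the H-ras KO label was not checked. The arrays numbered 3 also stood apart on markers of T-cells, whose median over 15 probe sets was -1.04 and -0.79 on the stimulated and unstimulated arrays labelled N-ras KO 3, 0.70 and 0.76 on those labelled WT 3, and between -0.11 and 0.28 on the other 8 arrays. Fewer cells of a type and less RNA per cell cannot be told apart in such samples.

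In thymocytes, most interferon-stimulated genes read lower on the H-ras KO array than on the N-ras KO array. Of the 47 member probe sets 41 lay below 0 in H-ras KO minus N-ras KO and 4 above it, a share of 87.2% below and 8.51% above, where 31.7% of all probe sets lay below 0 and 35.0% above. These 41 stood for 31 of the 33 genes. The median difference over the members was -0.28, and over all probe sets it was 0.00. With 1 array per genotype none of these differences has a replicate check, and no test was made. The 3 comparisons of thymocytes share their arrays, so that their values are set side by side and are not independent of each other.

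Iigp1, an immunity-related GTPase that coats and disrupts the vacuoles of intracellular parasites, stood lowest. Its probe set 1419043_a_at read -1.11 in H-ras KO, 0.45 in N-ras KO and 0.00 in WT thymocytes, which is 0.339 of the N-ras KO value on the linear scale. The other probe set, 1419042_at, read -0.80 in H-ras KO, 0.27 in N-ras KO and 0.00 in WT. Both probe sets thus gave the same order, with the H-ras KO array low and the N-ras KO array slightly above WT. The other GTPases of this family, Igtp and Irgm1, differed by -0.13 and -0.43 in H-ras KO minus N-ras KO, and the median over the 4 probe sets of the family was -0.75.

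Ifit3 followed at -0.49 in H-ras KO, 0.40 in N-ras KO and 0.00 in WT. Ifit1 read -0.46 in H-ras KO, 0.13 in N-ras KO and 0.00 in WT. Ifit2, of the same family, was listed at 0 on all 3 arrays and is the only member probe set for which this was so. Zbp1, a sensor of nucleic acid in the Z form that can start cell death, read -0.56 in H-ras KO, 0.26 in N-ras KO and 0.00 in WT on 1429947_a_at. On 1419604_at it read -0.55 in H-ras KO, 0.11 in N-ras KO and 0.00 in WT. Rsad2 read -0.59 in H-ras KO, 0.11 in N-ras KO and 0.00 in WT on 1436058_at, and its other probe sets differed by -0.57 and -0.54 in H-ras KO minus N-ras KO. For Ifit3, Ifit1, Zbp1 and Rsad2 1436058_at the H-ras KO array was thus the low one, with N-ras KO above WT by smaller amounts.

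These 7 probe sets of 5 genes, Iigp1, Ifit3, Zbp1, Rsad2 and Ifit1, were the members that fell below N-ras KO thymocytes by 1.5-fold or more in H-ras KO, 14.9% of 47, where 1.38% of all probe sets passed this fold in that direction. No member was 1.5-fold higher, where 1.04% of all probe sets were. The last probe set inside the fold was that of Ifit1 at -0.59, and the first outside it was Rsad2 1421009_at at -0.57. At a 2-fold threshold the 2 probe sets of Iigp1 remained, and with 1 probe set for each gene 4 genes passed 1.5-fold. By role, the median of H-ras KO minus N-ras KO was -0.50 over the 11 probe sets of Ifit, Mx, OAS-family and other antiviral effectors, -0.43 over the 6 of sensors of nucleic acid, -0.23 over the 5 of transcription factors, -0.16 over the 6 of guanylate-binding proteins, which are GTPases akin to Gbp2, and -0.06 over the 5 of Tap1 and Cxcl10. Of these 5 genes, Ifit1, Ifit3 and Rsad2 have a promoter window here, and each holds the ISRE core printed above.

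The other effectors and sensors lay below 0 by smaller amounts. Oasl2 and Oasl1, relatives of the enzymes that make the second messenger of RNase L, differed by -0.50 and -0.47 in H-ras KO minus N-ras KO, and Oas1a, one of those enzymes, by -0.26. Ifih1, which senses viral RNA, differed by -0.39, and its relative Dhx58 by -0.45, -0.41 and -0.04 on 3 probe sets. Mx2 and Mx1, dynamin-like GTPases that block viruses, differed by -0.15 and -0.03. Usp18, the protease that removes Isg15 from proteins and damps the receptor of interferon alpha, differed by -0.37, and the ADP-ribosyltransferases Parp14 and Parp9 by -0.26 and -0.24. Bst2, a protein that tethers budding viruses, differed by -0.06, the chemokine Cxcl10 by -0.06, and Tap1, which carries peptides for antigen presentation, between -0.28 and 0.11 over 4 probe sets. The shift was thus shared by most members but was small for many of them.

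Among the transcription factors, Irf9 differed by -0.48 in H-ras KO minus N-ras KO, and the others differed by less. Irf9, the DNA-binding partner of Stat2, read -0.45 in H-ras KO, 0.04 in N-ras KO and 0.00 in WT. Irf1 read -0.30 in H-ras KO, 0.00 in N-ras KO and 0.34 in WT, so that here both KO arrays lay below WT. Irf7, which drives production of interferon alpha, read -0.23 in H-ras KO and 0.00 in both N-ras KO and WT, and Stat2 read 0.00 in H-ras KO, 0.03 in N-ras KO and -0.04 in WT on 1421911_at. On its other probe set, 1450403_at, Stat2 read 0.00 in H-ras KO, 0.09 in N-ras KO and -0.16 in WT. Of the 4 factors, Irf1 alone passed 1.5-fold in any comparison, at -0.65 in H-ras KO minus WT.

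**Figure D1:**
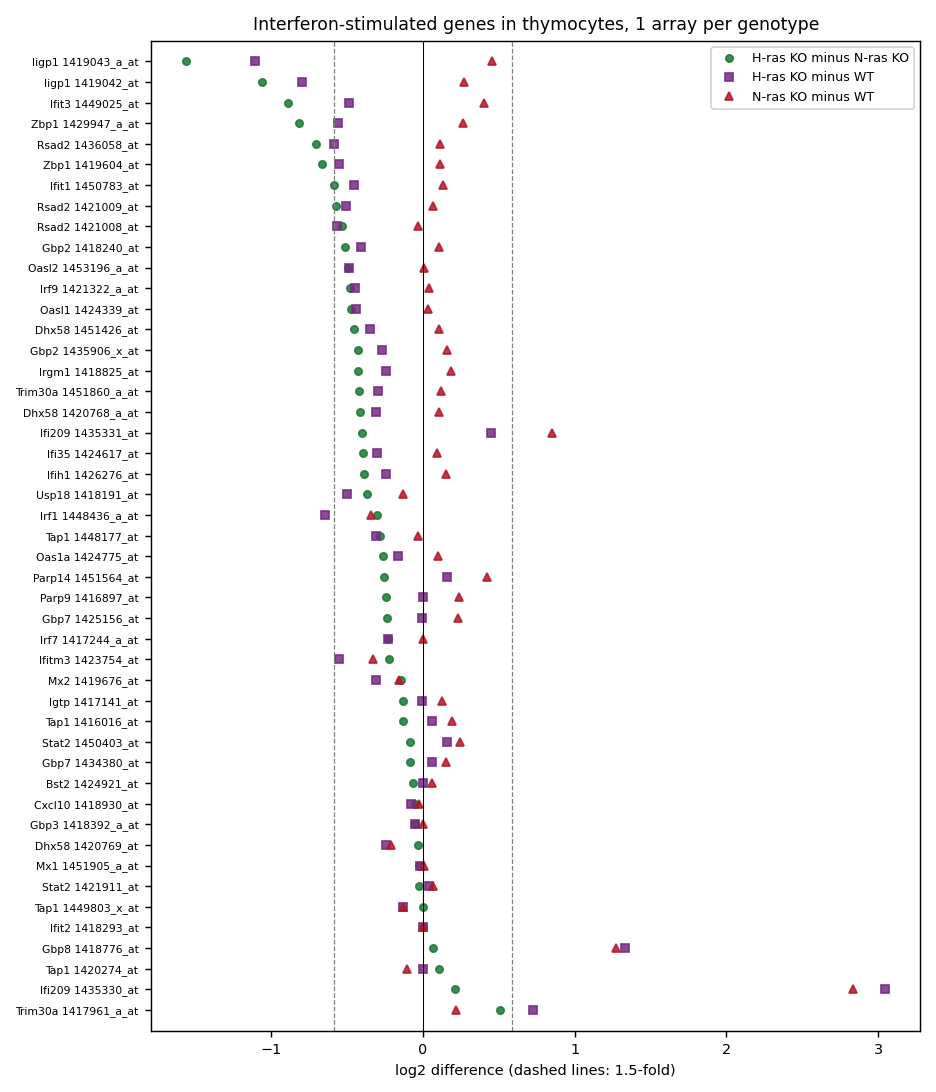
Log2 difference of each of the 47 member probe sets in thymocytes (x axis), sorted by H-ras KO minus N-ras KO, with 1 array per genotype and dashed lines at 1.5-fold. Green circles are H-ras KO minus N-ras KO, purple squares H-ras KO minus WT and red triangles N-ras KO minus WT. The circles lie below 0 for 41 probe sets and reach -1.56 at Iigp1, and Ifi209 stands alone near 3 in both comparisons with WT.

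Set against WT, H-ras KO thymocytes had 36 member probe sets below 0 and 9 above, 76.6% and 19.1% of 47, where 31.9% of all probe sets lay below 0 and 32.9% above. The median was -0.25. Past 1.5-fold, 4 member probe sets were lower (8.51%), where 1.51% of all probe sets were. They were both probe sets of Iigp1, that of Irf1 and Rsad2 1436058_at. A further 3 were higher (6.38%), where 1.47% of all probe sets were: Ifi209 1435330_at, Gbp8, and Trim30a 1417961_a_at. Trim30a, of the family of TRIM proteins, read 0.51 in H-ras KO, 0.00 in N-ras KO and -0.22 in WT on that probe set, but -0.30 in H-ras KO, 0.12 in N-ras KO and 0.00 in WT on 1451860_a_at, so that its probe sets disagreed.

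N-ras KO thymocytes leaned the other way against WT, by smaller amounts. Of the 47 probe sets 34 lay above 0 and 10 below, 72.3% and 21.3%, where 32.3% of all probe sets lay above 0 and 35.7% below. The median was 0.10. The 3 that passed 1.5-fold (6.38%) were all higher, where 1.55% of all probe sets were, and 0 were lower, where 1.09% of all probe sets were. They were both probe sets of Ifi209 and that of Gbp8.

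Ifi209, of the p200 family of nucleic acid-binding proteins, was the member farthest from WT in both KO thymocytes. On 1435330_at it read 0.21 in H-ras KO, 0.00 in N-ras KO and -2.84 in WT, so that H-ras KO was 8.27-fold and N-ras KO 7.15-fold above WT. On 1435331_at it read 0.00 in H-ras KO, 0.40 in N-ras KO and -0.45 in WT. The WT array was the low one on both probe sets. Gbp8, a guanylate-binding protein, had the same shape at 0.06 in H-ras KO, 0.00 in N-ras KO and -1.27 in WT, which is 2.52-fold and 2.41-fold above WT. Both genes lie in clusters of near-identical genes, so that a probe set may also read a neighbour, and on the CD4+ T-cell arrays both also varied widely within a genotype, as described below.

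Markers of other cells moved on these arrays as well. Of 10 probe sets for neutrophil markers, 7 were at least 1.5-fold lower than WT in H-ras KO and 7 in N-ras KO thymocytes. Of all probe sets 1.51% and 1.09% were. The medians over the neutrophil markers were -1.52 and -1.40, while the median of H-ras KO minus N-ras KO was -0.18. Of 11 probe sets for B cell markers, 7 lay below 0 in H-ras KO minus N-ras KO, 5 of them by at least 1.5-fold. Of all probe sets 31.7% lay below 0, and 1.38% by at least that fold. The median over the B cell markers was -0.56, and the lowest of them, Ms4a1, differed by -1.48 and -1.09. The medians over 14 probe sets for T-cell markers and 10 for dendritic cell markers were 0.00 and -0.08 in H-ras KO minus N-ras KO. The part of these cells in the values of the interferon-stimulated genes was not tested.

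The wider interferon pathway was read from 101 further genes listed by role, of which 76 were named on the thymocyte arrays by 116 probe sets. In H-ras KO minus N-ras KO, 9 of the 116 probe sets were at least 1.5-fold lower and 1 was higher. Of all probe sets 1.38% were lower and 1.04% higher by this fold. The median over the 116 was -0.11. Slfn1, an interferon-inducible gene of the Schlafen family, was lowest apart from a probe set of Trim34a. Its only probe set on these arrays read -0.76 in H-ras KO, 0.34 in N-ras KO and 0.00 in WT. Trim34a differed by 2.70 on one probe set and by -1.46 on another in H-ras KO minus N-ras KO. Slfn8 at -0.91, Ifi27l2a at -0.81, Cmpk2 at -0.76 and Shisa5 at -0.70 were also lower. So were Ddx60 at -0.68, Irgm2 at -0.66 and Tlr7 at -0.65. Their other probe sets stayed inside the fold, at -0.37 for Cmpk2, -0.56 for Shisa5 and 0.13 and 0.00 for Tlr7. In N-ras KO minus WT, Ddx60 at 0.82 and Gbp6 at 0.69 were higher. Ifng, which encodes interferon gamma itself, read -0.24 in H-ras KO, 0.00 in N-ras KO and 0.80 in WT. Socs1, the feedback inhibitor of the receptor kinases, read -0.10 in H-ras KO, 0.00 in N-ras KO and 1.00 in WT. These last genes were thus lower than WT in both KO arrays, a different order from that of most members. Over the 8 probe sets for interferon ligands and the 7 for interferon receptors the medians of H-ras KO minus N-ras KO were 0.00 and -0.10.

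Of the members, Irf7 and Ifitm3, which blocks entry of viruses, lie close to Hras on chromosome 7, with 5 and 7 protein-coding genes between. Ifitm3 read -0.23 in H-ras KO, 0.00 in N-ras KO and 0.33 in WT. Gbp7, Gbp3 and Gbp2 share chromosome 3 with Nras, with 246, 247 and 249 protein-coding genes between, and Trim30a shares chromosome 7 with Hras, with 510 between. Of these 6 genes Trim30a alone passed 1.5-fold in a thymocyte comparison, as given above.

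In CD4+ T-cells the interferon-stimulated genes varied widely between arrays of the same group. The arrays numbered 3 lay farthest from the rest. On the stimulated array labelled N-ras KO 3, 22 of the 52 member probe sets (42.3%) lay at least 1.5-fold below the unstimulated median of their genotype, where 19.8% of all probe sets did, and 11 (21.2%) lay above, where 21.3% of all did. On the unstimulated array labelled N-ras KO 3 it was 20 of 52 (38.5%), where 15.7% of all probe sets did. On the stimulated array labelled WT 3, 23 of 52 (44.2%) lay at least 1.5-fold above, where 16.0% of all probe sets did. On the unstimulated array labelled WT 3 it was 11 of 52 (21.2%), where 15.0% of all probe sets did, and 10 lay below.

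**Figure D2:**
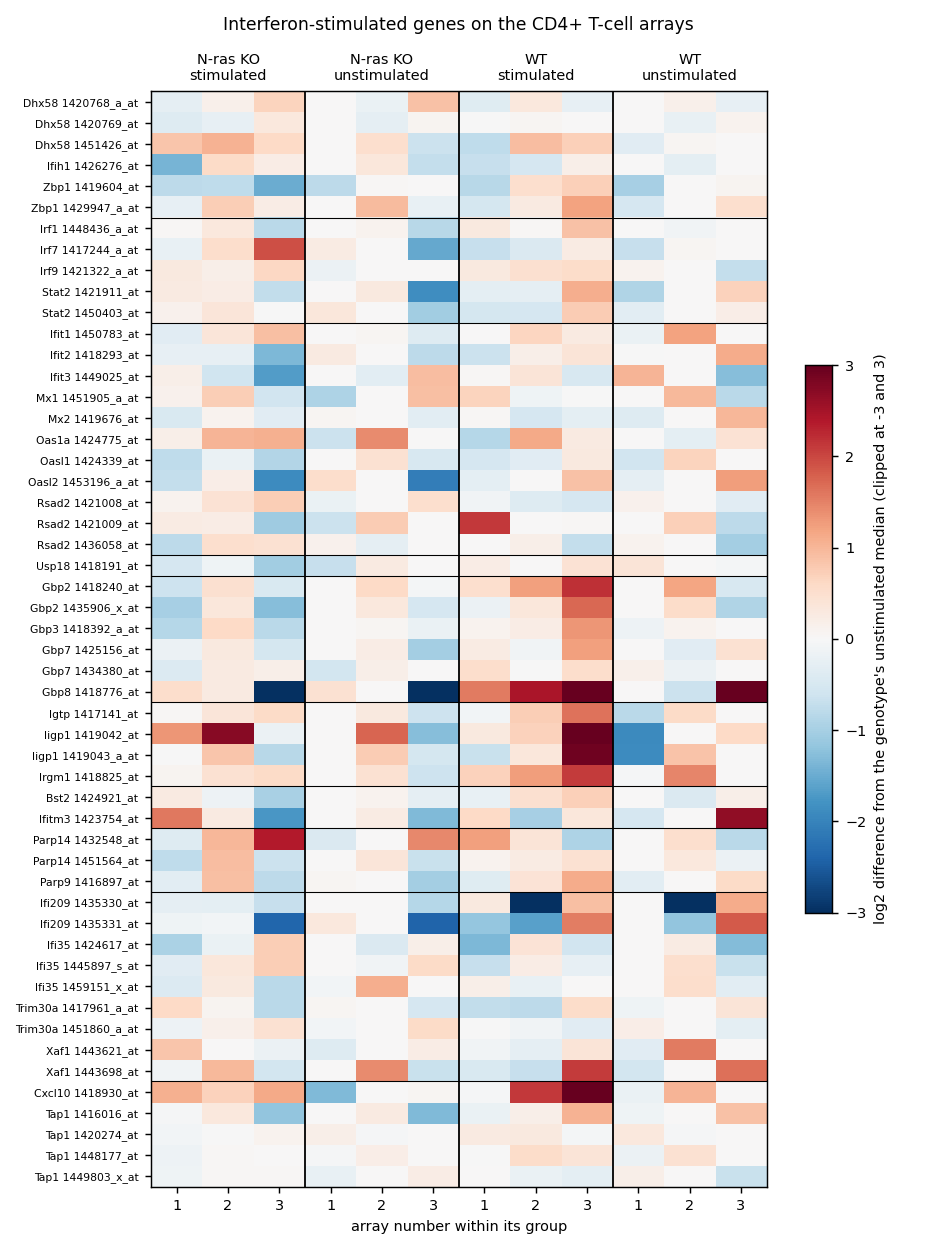
Log2 difference of the 52 member probe sets (rows, grouped by role) from the unstimulated median of their own genotype on the 12 CD4+ T-cell arrays (columns, in 4 groups of 3), coloured from -3 (blue) to 3 (red). The columns labelled N-ras KO 3 hold more blue than red and the stimulated column labelled WT 3 more red than blue cells, with 22 of 52 probe sets at least 1.5-fold below and 23 of 52 at least 1.5-fold above.

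The median over the members was -0.15, 0.29 and -0.39 on the stimulated arrays labelled N-ras KO 1, 2 and 3, against -0.02, 0.19 and 0.49 on the stimulated arrays labelled WT 1, 2 and 3. Medians over all probe sets lay between -0.10 and 0.14 on the 12 arrays. On the unstimulated arrays it was 0.00, 0.05 and -0.28 for N-ras KO 1, 2 and 3 and 0.00 on all 3 for WT. For part of the members 1 array was at the end of its genotype in both conditions. The array labelled N-ras KO 3 was the lowest of its genotype with and without stimulus on 20 of the 52 probe sets (38.5%), where it was on 20.2% of all probe sets. N-ras KO 2 was the highest of its genotype in both conditions on 19 (36.5%), where it was on 11.2% of all probe sets. WT 1 was the lowest of its genotype in both conditions on 19 (36.5%), where it was on 12.5% of all probe sets. WT 3 was the highest on 16 (30.8%), where it was on 20.6% of all probe sets. The markers of T-cells were lowest on the arrays labelled N-ras KO 3 and highest on those labelled WT 3, as given above, and markers of B cells were high on both, with medians of 1.17 and 0.56 on the stimulated and unstimulated arrays labelled N-ras KO 3 and 0.91 and 0.35 on those labelled WT 3. Their part in the values of the members was not tested.

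**Figure D3:**
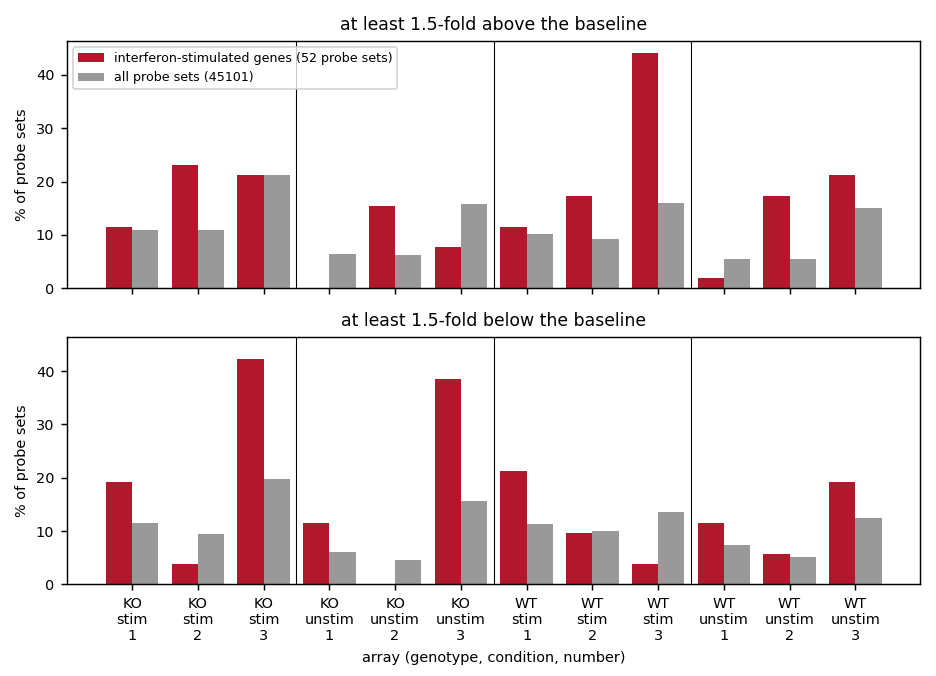
Share of probe sets (y axis, in percent) at least 1.5-fold above (upper panel) or below (lower panel) the unstimulated median of their genotype on each of the 12 CD4+ T-cell arrays (x axis). Red bars are the 52 member probe sets and grey bars all 45101 probe sets. The red bars exceed the grey ones most on the arrays labelled N-ras KO 3 below (42.3% and 38.5%) and on the stimulated array labelled WT 3 above (44.2%).

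Among single genes, Oasl2 read -0.71, 0.19 and -1.89 on the stimulated and 0.53, 0.00 and -2.08 on the unstimulated arrays labelled N-ras KO 1, 2 and 3. It read -0.29, 0.02 and 0.89 on the stimulated and -0.27, 0.00 and 1.25 on the unstimulated arrays labelled WT 1, 2 and 3. The arrays numbered 3 were thus at the ends of both genotypes in both conditions. Ifi209 differed between its probe sets, since 1435330_at read -4.37 and -5.12 on the stimulated and unstimulated arrays labelled WT 2 but between -0.85 and 1.12 on the other 10. Its probe set 1435331_at was at its ends on the arrays numbered 3, with -2.38 and -2.39 on the stimulated and unstimulated arrays labelled N-ras KO 3 and 1.53 and 1.84 on those labelled WT 3. Stat2, by 1421911_at, read 0.26, 0.22 and -0.73 on the stimulated and 0.00, 0.30 and -1.86 on the unstimulated arrays labelled N-ras KO 1, 2 and 3, against -0.30, -0.27 and 1.08 on the stimulated and -0.89, 0.00 and 0.68 on the unstimulated arrays labelled WT 1, 2 and 3. Its other probe set, 1450403_at, likewise had its lowest value, -1.03, on the unstimulated array labelled N-ras KO 3 and its highest, 0.76, on the stimulated array labelled WT 3. Irf1 read 0.03, 0.32 and -0.81 on the stimulated and 0.00, 0.11 and -0.83 on the unstimulated arrays labelled N-ras KO 1, 2 and 3, against 0.30, 0.03 and 0.89 on the stimulated and 0.00, -0.11 and 0.00 on the unstimulated arrays labelled WT 1, 2 and 3. For all 3 of Oasl2, Stat2 and Irf1 the stimulated groups overlapped.

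The first comparison of the CD4+ T-cells set stimulated N-ras KO against stimulated WT cells, each relative to the unstimulated cells of its own genotype. Lower and higher thus refer to the change from that baseline, here and wherever the stimulated groups are compared. Expression itself could not be compared between the genotypes. The p-values of this comparison take each baseline as exact and leave out the uncertainty of the unstimulated medians, so they may be too small. That uncertainty enters the third comparison below, where no member passed an unadjusted p of 0.05. No probe set on the array passed an adjusted p of 0.05 by limma (0% of 45101), and the lowest adjusted p of a member was 0.582. Unadjusted p under 0.05 was met by 5 member probe sets, and all of them also passed 1.5-fold. Of the 52, 4 were lower (7.69%), where 3.33% of all probe sets were, and 1 was higher (1.92%), where 3.57% of all probe sets were. The lower ones were Gbp8, Gbp2, Zbp1 and Usp18, and the higher one was Rsad2. The median over the members was -0.24 and over all probe sets 0.03. It lay between -0.44, without the stimulated array labelled WT 2, and -0.04, without that labelled WT 3, when single arrays were left out. It was -0.43 without N-ras KO 2, -0.37 without WT 1, -0.14 without N-ras KO 3 and -0.13 without N-ras KO 1, and -0.12 after quantile normalization.

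The guanylate-binding proteins held 2 of the 4 lower probe sets, and the median over the 6 probe sets of the group was -1.09. Gbp8 read 0.52, 0.26 and -3.77 on the stimulated arrays labelled N-ras KO 1, 2 and 3, against 1.55, 2.45 and 4.91 on the stimulated arrays labelled WT 1, 2 and 3. The groups did not overlap, but the arrays numbered 3 lay far from the rest on both sides. The difference was -3.97 (standard error 1.72, unadjusted p = 0.0435 and adjusted p = 0.643 by limma). Gbp2, by 1418240_at, read -0.63, 0.47 and -0.45 in stimulated N-ras KO against 0.49, 1.22 and 2.19 in stimulated WT cells. These groups lay next to each other without overlap. The difference was -1.50 (standard error 0.52, unadjusted p = 0.0156 and adjusted p = 0.585 by limma). Its other probe set, 1435906_x_at, read -1.01, 0.33 and -1.29 in stimulated N-ras KO against -0.18, 0.33 and 1.72 in stimulated WT cells, and there the groups overlapped.

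Zbp1, by 1419604_at, read -0.79, -0.75 and -1.50 on the stimulated arrays labelled N-ras KO 1, 2 and 3, against -0.83, 0.51 and 0.72 on the stimulated arrays labelled WT 1, 2 and 3. The array labelled WT 1 fell among the N-ras KO values. The difference was -1.14 (standard error 0.46, unadjusted p = 0.0314 and adjusted p = 0.622 by limma). The other probe set of Zbp1, 1429947_a_at, did not pass in this comparison. Its mean change after stimulation was -0.003 in N-ras KO and 0.31 in WT cells. Usp18 read -0.51, -0.14 and -1.05 in stimulated N-ras KO against 0.22, 0.00 and 0.43 in stimulated WT cells. The groups did not overlap, although N-ras KO 2 and WT 2 lay only 0.14 apart. The difference was -0.78 (standard error 0.31, unadjusted p = 0.0289 and adjusted p = 0.612 by limma). Rsad2, by 1421008_at, read 0.10, 0.43 and 0.73 in stimulated N-ras KO against -0.10, -0.38 and -0.50 in stimulated WT cells. The groups did not overlap. The difference was 0.75 (standard error 0.25, unadjusted p = 0.0143 and adjusted p = 0.582 by limma). Its other probe sets, 1421009_at and 1436058_at, had overlapping groups and did not pass either threshold.

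**Figure D4:**
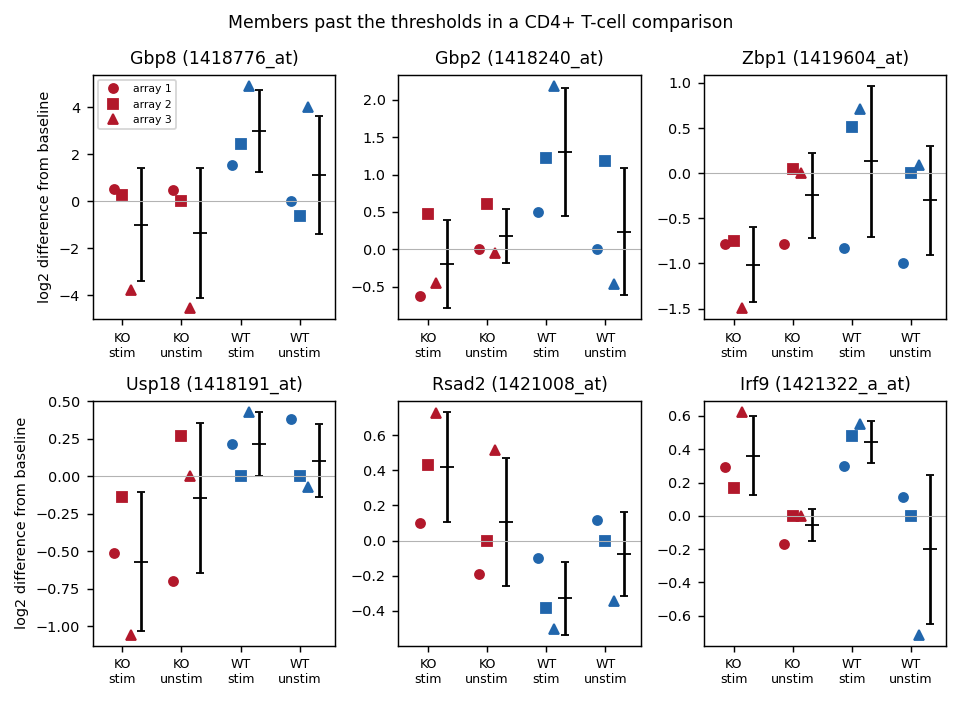
Log2 values, relative to the unstimulated median of the same genotype, of the 6 member probe sets past an unadjusted p of 0.05 and 1.5-fold in a CD4+ T-cell comparison, in the 4 groups of 3 arrays (red N-ras KO, blue WT, markers by array number, bars mean ± SD). Relative to these medians, Gbp8, Gbp2, Zbp1 and Usp18 lie lower and Rsad2 higher in stimulated N-ras KO than in stimulated WT cells. Irf9 lies higher in stimulated than in unstimulated WT cells.

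The other 47 member probe sets did not pass an unadjusted p of 0.05 in this comparison. Those nearest to it on the lower side were Gbp2 1435906_x_at at -1.28, Gbp3 at -0.90 and Irgm1 at -0.98. Irgm1, which guards the cell's own membranes against its sister GTPases, read 0.09, 0.45 and 0.58 in stimulated N-ras KO against 0.70, 1.25 and 2.10 in stimulated WT cells, with no overlap. The median over the 4 probe sets of immunity-related GTPases was -0.65. Among the transcription factors the differences were -0.56 for Irf1, -0.08 for Irf9, -0.25 and 0.24 for the probe sets of Stat2 and 1.04 for Irf7, none of which passed. The sensors and the effectors had medians of 0.03 and -0.08, with Mx1 at -0.08, Mx2 at 0.03, Ifih1 at 0.14, Ifit1 at -0.01 and Oas1a at 0.58. Ifitm3 read 1.59, 0.26 and -1.74 in stimulated N-ras KO against 0.60, -0.99 and 0.33 in stimulated WT cells, so that the N-ras KO arrays alone covered the whole range of the WT arrays. Genes with several probe sets were not of 1 sign throughout, as Parp14 differed by 0.76 and -0.43, Tap1 between -0.64 and 0.15, Ifi35 between -0.30 and 0.49 and Xaf1 by 0.22 and -0.22.

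These calls rested on few arrays. Without N-ras KO 3 and WT 1, the numbers on which Nras went against the label, 3.58% of all probe sets were lower and 3.66% higher at the same thresholds, 5 member probe sets were lower (Zbp1 at -1.38, Gbp2 at -1.79, Cxcl10 at -1.75, Irgm1 at -1.41 and Igtp at -0.99) and Rsad2 was higher at 0.71, while Usp18 at -0.54 and Gbp8 at -3.29 no longer passed. Without the arrays numbered 3, an alternative chosen after the data were seen, the calls turned to 1 lower and 3 higher, where 6.00% of all probe sets were lower and 5.38% higher. Gbp8 at -1.61 was the lower member, Trim30a 1417961_a_at at 1.11, Ifi209 1435331_at at 1.28 and Stat2 1450403_at at 0.75 were the higher ones, Gbp2 at -0.94, Zbp1 at -0.61, Usp18 at -0.43 and Rsad2 at 0.51 did not pass, and the median over the members was -0.02. Leaving out the stimulated array labelled N-ras KO 3 or that labelled WT 3 alone left 1 call, leaving out that labelled WT 2 left 3, and leaving out that labelled N-ras KO 2 or WT 1 gave 8 and 9. For these single arrays the share of all probe sets was not counted, so the calls have no background beside them. Relative to each baseline, 3 of 10 probe sets for neutrophil markers were higher in stimulated N-ras KO than in stimulated WT cells. With all arrays, 3.57% of all probe sets were higher at the same thresholds. The median over the neutrophil markers was 1.26, and that over 15 probe sets for T-cell markers was -0.25.

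The second comparison took the response to the TCR stimulus within each genotype. In N-ras KO cells no probe set passed the adjusted p (0% of 45101), and no member passed an unadjusted p of 0.05, where 1.16% of all probe sets were higher and 1.19% lower at that p and 1.5-fold. The median over the members was 0.00. In WT cells no probe set passed the adjusted p either (0% of 45101), and 1 member, Irf9, passed the unadjusted p and 1.5-fold, where 0.530% of all probe sets were higher and 0.510% lower. Irf9 read 0.29, 0.17 and 0.62 in stimulated against -0.17, 0.00 and 0.00 in unstimulated N-ras KO cells, and 0.30, 0.48 and 0.55 in stimulated against 0.11, 0.00 and -0.71 in unstimulated WT cells. The stimulated arrays lay above the unstimulated ones without overlap in both genotypes. The response was 0.42 in N-ras KO (standard error 0.24, unadjusted p = 0.114 by limma) and 0.64 in WT (standard error 0.24, unadjusted p = 0.023 by limma), with an adjusted p of 1 for both. It did not pass in WT without the unstimulated array labelled WT 3, at 0.39, without the stimulated array labelled WT 2, at 0.63, or without that labelled WT 3, at 0.59.

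Stimulated and unstimulated arrays of 1 number and genotype deviated together, so the change was also taken within each number. In stimulated minus unstimulated N-ras KO cells, 11 of the 52 probe sets were higher in all 3 numbers (21.2%), where 13.8% of all probe sets were, and 5 were lower in all 3 (9.62%), where 12.9% of all probe sets were. In stimulated minus unstimulated WT cells 12 were higher in all 3 numbers (23.1%), where 14.5% of all probe sets were, and 3 were lower (5.77%), where 13.5% of all probe sets were. The genes with a probe set higher in all 3 numbers of both genotypes were Cxcl10, Gbp7, Gbp8, Igtp, Iigp1, Irf1 and Irf9. For Gbp7 and Iigp1 the other probe set did not rise in all 3 numbers of N-ras KO. The share of all probe sets that rose throughout in both genotypes was not counted, so this list has no background beside it. The guanylate-binding proteins differed in count, with 2 of 6 probe sets higher in all 3 numbers of N-ras KO and 5 of 6 in WT cells, and this difference in count was not tested.

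Cxcl10, which draws activated T-cells, changed by 2.39, 0.68 and 1.08 in N-ras KO 1, 2 and 3 and by 0.18, 1.11 and 3.13 in WT 1, 2 and 3. All 6 changes were upward, and the N-ras KO values lay within the range of the WT values. Iigp1, by 1419042_at, changed by 1.32, 0.99 and 1.12 in N-ras KO and by 2.21, 0.70 and 2.54 in WT. Its other probe set, 1419043_a_at, changed by -0.01, 0.06 and -0.30 in N-ras KO and by 1.22, -0.52 and 2.93 in WT, so that the probe sets disagreed. Igtp changed by 0.04, 0.05 and 1.19 in N-ras KO and by 0.73, 0.17 and 1.63 in WT. Irf7 changed by -0.47, 0.52 and 3.49 in N-ras KO and by 0.00, -0.48 and 0.25 in WT, with 1 array pair far from the rest. Its values were -0.23, 0.52 and 1.94 in stimulated and 0.24, 0.00 and -1.54 in unstimulated N-ras KO cells, and -0.70, -0.44 and 0.25 in stimulated and -0.70, 0.05 and 0.00 in unstimulated WT cells.

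**Figure D5:**
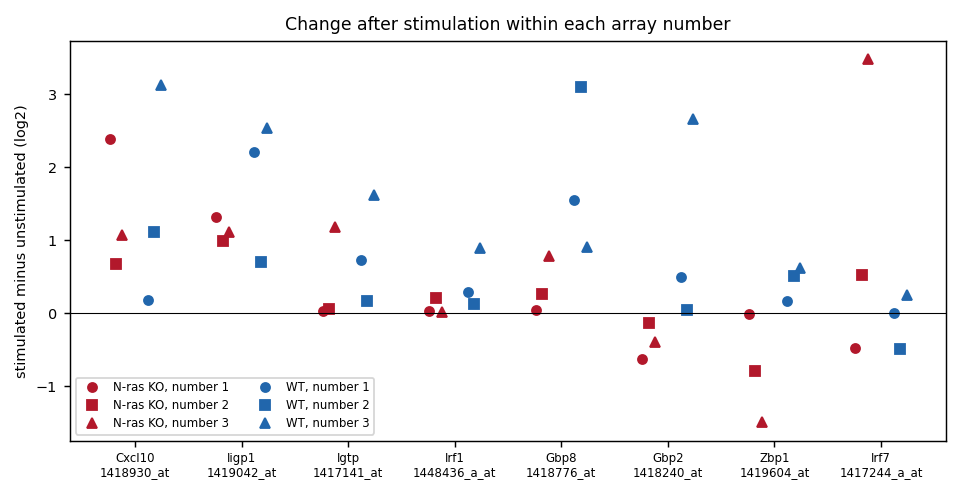
Change after stimulation (stimulated minus unstimulated, log2, y axis) within each array number for 8 member probe sets (x axis), N-ras KO in red to the left of WT in blue, with circles, squares and triangles for numbers 1, 2 and 3. Cxcl10, Iigp1, Igtp, Irf1 and Gbp8 lie above 0 in all 6 pairs, Gbp2 and Zbp1 below 0 in N-ras KO and above 0 in WT, and 1 pair of Irf7 reaches 3.49.

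With the number within each genotype as a block, more probe sets passed an unadjusted p of 0.05 and 1.5-fold, members and others alike, and again no member passed an adjusted p. In N-ras KO cells 2.25% of all probe sets were then higher and 2.65% lower, and in WT cells 1.43% and 1.37%. Of the 52 members 2 were higher and 2 lower in N-ras KO cells, and 4 were higher and 1 lower in WT cells. In N-ras KO cells Iigp1 1419042_at at 1.14 and Dhx58 1451426_at at 0.87 were higher after stimulation, and Zbp1 1419604_at at -0.77 and Ifi35 1459151_x_at at -0.65 were lower. The other probe sets of these genes had mean changes between -0.08 and 0.09 in N-ras KO cells. In WT cells Iigp1 1419042_at at 1.82, Gbp8 at 1.85, Cxcl10 at 1.47 and Irf9 at 0.64 were higher, and Ifi209 1435331_at at -0.64 was lower. There the other probe set of Iigp1 had a mean change of 1.21 and that of Ifi209 one of 0.28. Without N-ras KO 3 and WT 1, and with no block, 1.64% of all probe sets were higher and 1.47% lower in N-ras KO cells, and 0.736% and 0.918% in WT cells. Of the members, Cxcl10 at 1.54 and Dhx58 at 0.68 were higher in N-ras KO cells, and Cxcl10 at 2.12, Irf9 at 0.87, Dhx58 at 0.79 and Bst2 at 0.73 were higher in WT cells.

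The third comparison asked whether the responses differed, by taking the response in N-ras KO minus that in WT cells. The first comparison also took changes from a baseline, but only the third takes in the uncertainty of the unstimulated arrays. No probe set passed the adjusted p (0% of 45101) and no member the unadjusted p of 0.05, where 0.627% of all probe sets were higher and 0.665% lower at that p and 1.5-fold. The median over the members was -0.10, and over the 6 probe sets of guanylate-binding proteins it was -1.10. The largest differences of members called in the comparison of stimulated cells were Gbp8 at -1.49 (unadjusted p = 0.555 by limma), Gbp2 1418240_at at -1.45 (unadjusted p = 0.076 by limma) and Zbp1 1419604_at at -1.20 (unadjusted p = 0.094 by limma). With the number within each genotype as a block, Zbp1 (unadjusted p = 0.0241 by limma) and Gbp8 (unadjusted p = 0.0413 by limma) passed as lower, both at an adjusted p of 0.961, where 2.28% of all probe sets were lower and 1.84% higher.

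The 52 member probe sets are part of a larger pathway, and 89 of its 101 other listed genes were named on the CD4+ T-cell arrays, by 161 probe sets. In stimulated N-ras KO minus stimulated WT cells 7 of the 161 were lower (4.35%) and 2 higher (1.24%) at an unadjusted p of 0.05 and 1.5-fold, where 3.33% and 3.57% of all probe sets were, so that the lower share was near that of all probe sets. The median was -0.12. Tlr7, a receptor for single-stranded RNA in endosomes, read -3.90, -3.57 and -3.75 on the stimulated arrays labelled N-ras KO 1, 2 and 3 and 0.69, -2.01 and 0.00 on the unstimulated ones, by 1449640_at. In WT cells it read -0.22, 1.41 and 2.32 with the stimulus and 0.00, -0.34 and 0.78 without. The stimulated N-ras KO arrays lay close together and below all 9 others. The difference between the stimulated groups was -4.91 (standard error 0.73, unadjusted p = 4.684e-05 and adjusted p = 0.264 by limma), and that between the responses was -4.32 (unadjusted p = 0.00181 by limma). A second Tlr7 probe set, 1419848_x_at, differed by -4.57 between the stimulated groups and -4.40 between the responses. The remaining one, 1422010_at, read 0.01, 0.04 and 2.46 in stimulated N-ras KO and 0.27, -0.13 and 0.11 in stimulated WT cells and so did not share this pattern.

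Relative to the unstimulated cells of each genotype, other genes were also lower in stimulated N-ras KO than in stimulated WT cells. They were Cgas, the sensor of cytosolic DNA, at -1.15 and Irf8, a transcription factor of myeloid and B cells, at -1.61. Ddx60, a helicase, at -1.59, the receptor chain Ifnlr1 at -1.23 and Pias1, an inhibitor of STAT proteins, at -1.02 were lower too. Higher were Tyk2, a kinase of the interferon alpha receptor, at 1.12 and Slfn5 at 1.00. All but Ifnlr1 passed on 1 probe set of several. The others read -0.21 for Cgas, -0.35 for Irf8, 0.20 for Ddx60, -0.64 for Tyk2, between 0.06 and 0.41 for Pias1 and 0.37 and 0.72 for Slfn5. The adjusted p of the 7 that passed lay between 0.572 and 0.653 by limma. In the response of N-ras KO cells 3 of the 161 were lower, Tlr7 on 2 probe sets and Pias1 at -1.10, where 1.19% of all probe sets were. In that of WT cells 2 were higher, Ifnlr1 at 1.25 and Gbp6 at 1.41, where 0.530% of all probe sets were. No interferon ligand passed in any of these comparisons, and over their 8 probe sets the median of stimulated N-ras KO minus stimulated WT cells was 0.24.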

How the data were processed

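Expression was measured on Affymetrix arrays of 12 CD4+ T-cell and 3 thymocyte samples. The authors deposited log2 values. The submitters' processing notes name RMA, with no version, and the study's methods add the Genespring software, quantile normalization and a shift of each probe set to the median of its controls. The deposited values are thus differences, with no brightness, so no filter on dim probe sets was possible. Gene names came from the platform annotation, which gave 1 gene to 34958 probe sets of the CD4+ T-cell arrays, several to 932 and none to 9211. For the thymocyte arrays the numbers were 20393, 691 and 1606. Groups came from the sample labels. For CD4+ T-cells a single two-sided limma fit (limma 3.58.1, R 4.3.3; lmFit, then eBayes) took in the 12 arrays and all 45101 probe sets, p-values were adjusted by Benjamini-Hochberg, and the script was tested on simulated data; the study's thresholds, 1.5-fold and an unadjusted p of 0.05, set the calls. Thymocytes were compared by fold. Promoters were RefSeq windows.

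The members and lists were chosen with earlier results of these data known. All members were to be named at least by count or range, and given in full were those past these thresholds and the 4 transcription factors Irf1, Irf7, Irf9 and Stat2; other pathway genes were named where past the thresholds, up to 12 per experiment. Oasl2 and the paired changes of Cxcl10 and Igtp were chosen after their values were seen. Arrays of 1 number and genotype deviated together, with correlations of 0.361, 0.394 and 0.626 in N-ras KO and 0.458, 0.447 and 0.738 in WT, and the methods describe sorted cells as split between conditions; across genotypes correlations were from -0.621 to -0.117. The number within each genotype was therefore used as a block (consensus correlation 0.542 for the stimulated groups). Alternatives were the methods' t-test, 2 groups alone, both blocks, quantile normalization, centring, array weights, probe set choices, a 2-fold threshold and leaving out arrays.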

Additional observations from a re-analysis of the deposited data

Results flagged for a closer look

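For 3 of the 52 member probe sets on the CD4+ T-cell arrays the change after stimulation ran one way in all 3 array numbers of N-ras KO and the opposite way in all 3 of WT, which is 5.77%, where 2.97% of all 45101 probe sets did so. Gbp2 1418240_at changed by -0.63, -0.13 and -0.39 in N-ras KO and by 0.49, 0.04 and 2.66 in WT, a difference between the responses of -1.45 (unadjusted p = 0.076 by limma). Zbp1 1419604_at changed by 0.00, -0.80 and -1.50 in N-ras KO, the first just below 0, and by 0.17, 0.51 and 0.62 in WT, a difference of -1.20 (unadjusted p = 0.094 by limma, and 0.0241 with the number within each genotype as a block). Rsad2 1421008_at changed by 0.29, 0.43 and 0.21 in N-ras KO and by -0.22, -0.38 and -0.16 in WT, a difference of 0.56, which is under 1.5-fold. Its unadjusted p by limma was not under 0.05 without that block, and 0.0205 with it. None of the 3 passed an adjusted p. The other probe sets of these genes did not share the pattern. Gbp2 1435906_x_at changed by -1.01, 0.02 and -0.77 in N-ras KO and by -0.18, -0.21 and 2.62 in WT. Zbp1 1429947_a_at changed by -0.24, -0.21 and 0.44 in N-ras KO and by -0.02, 0.26 and 0.70 in WT. Rsad2 1421009_at and 1436058_at had mean changes of -0.25 and 0.11 in N-ras KO and of 0.74 and 0.13 in WT.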

How the results depend on the processing

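No probe set named with a call changed direction under any setting run, with 132 values on the same side of the threshold as before and 49 no longer past it. No member passed an adjusted p under any setting. For most settings the share of all probe sets called was not counted. The member counts below thus have no background beside them and are not a result about the members. For stimulated N-ras KO minus WT, with 5 calls, there was 1 call by the methods' t-test, 3 after quantile normalization and 3 with array quality weights, and between 1 and 9 when each replicate was left out. For the response in N-ras KO, with 0 calls, there were 2 with the 2 groups alone, 1 by the methods' t-test, 1 with the replicate block by number, 4 with the replicate block within genotype, 2 without N-ras KO 3 and WT 1, and between 0 and 2 when each replicate was left out. For the response in WT, with 1 call, there were 0 with the 2 groups alone, by the methods' t-test, after quantile normalization and with array quality weights, 3 with the replicate block by number, 5 with the replicate block within genotype, 4 without N-ras KO 3 and WT 1, 2 without the arrays numbered 3, and between 0 and 6 when each replicate was left out. For the difference of the responses, with 0 calls, there were 2 with the replicate block within genotype, 2 without the arrays numbered 3, and between 0 and 3 when each replicate was left out, while its median lay between -0.37 and 0.017. The setting without the arrays numbered 3 was chosen after seeing the data. In thymocytes a 2-fold threshold left 3 of 7 probe sets in H-ras KO minus WT and 2 of 7 in H-ras KO minus N-ras KO, and 1 probe set for each gene left 4 of 7 in the last. The cause of these changes was not tested. Calls on 3 arrays a group rest on single arrays, those numbered 3 above all, and thymocytes had no replicates. The deposited values hold no brightness, so genes near background could not be told from bright ones, and probe sets of gene families such as the guanylate-binding proteins, Ifi209 and Oas1a may also read close relatives.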
